A study of Mus musculus with 6 samples.

Results

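The genes described here encode chaperones, the proteins that fold other proteins, together with regulators of the stress responses that control them. They were chosen by name: 38 genes were listed, and each probe set that the array annotation gave to exactly 1 of them was taken. For 37 of the 38 genes at least 1 probe set was found, out of 18193 named genes in all. Hsp90ab1 was not analysed here. Where a gene had several, the brightest on average over the 6 arrays stood for it. Of the 37 genes, 36 passed a filter on dim signals that 11990 genes passed, and Hspa1a did not.

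Affymetrix arrays were hybridised with RNA from T cells that carry the 5C.C7 receptor, whose antigen is an MCC peptide, from moth cytochrome c. All donors were 5C.C7, RAG2-/- and CD45.1, so they could not rearrange other antigen receptors. The 3 wild type arrays came from donors with CTLA-4, an inhibitory receptor of activated T cells, and the 3 CTLA-4 KO arrays from donors that also were CTLA-4-/-. Cells of both genotypes had been transferred into B10.A recipients, which received MCC peptide and LPS, and were sorted after 4 days. The study asked how the knockout alters gene expression at this time. Ages, the number of animals behind an array and the part of the gene deleted are not given in the sources used here.

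Chaperones act in separate compartments. In the endoplasmic reticulum (ER), BiP, GRP94 and protein disulfide isomerases fold secreted and membrane proteins, and the unfolded protein response raises them through the sensors IRE1, ATF6 and PERK when folding falls behind. In the cytosol, HSF1 drives the heat shock genes, and in mitochondria HSP60 with its cap HSP10 folds imported proteins. The ring-shaped chaperonin CCT folds actin, tubulin and some cell cycle proteins. Activated T cells grow and divide fast, and their load of new protein is known to be high.

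Ctla4 itself had intensities of 5332, 4787 and 4587 in the wild type arrays against 812, 791 and 784 in those of CTLA-4 KO, in the order of replicates 1 to 3. It fell by 2.60 ± 0.10 on the log2 scale (SE, limma adjusted p = 1.45e-06), in the direction of the labels. Whether its probe set lies in the deleted part is not known here. All arrays had a trimmed mean intensity of 500.003, and their median intensities lay between 62.1 and 75.2. Xist was high in replicate 2 of both genotypes and low in the others, so replicate 2 came from female donors. The ratio of 5' to 3' Actb signal, a sign of RNA integrity, was 0.418, 0.41 and 0.584 in the wild type arrays against 0.567, 0.691 and 0.544 in CTLA-4 KO. For Gapdh the same ratio was lower, at 0.103, 0.0955 and 0.25 against 0.109, 0.205 and 0.178, and highest in a wild type array. Of 10 T cell markers 8 were measured and all were bright. Their summed intensity was 54794 to 59522 in the wild type arrays against 52286 to 53151 in those of CTLA-4 KO, so the ranges did not overlap. By gene, 4 of the 8 were higher in CTLA-4 KO and 4 lower, with a median log2 difference of 0.024. Of the 8, Cd28 and Cd3g were lower without overlap.

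Promoters of the members were read first, because these classes are known to answer to different stress signals. RefSeq promoters of build GRCm38.p6, from 250 bases before the start site to 50 after it, were found for 32 of the 38 genes. They were searched on both strands for 3 motifs. The ER stress element is CCAAT and CCACG with 9 unspecified bases between them, and is known to be bound by ATF6 with NF-Y. The heat shock element, bound by HSF1, was searched as 3 units of GAA and TTC in turn with 2 unspecified bases between units. The amino acid response element TGATGCAAT is bound by ATF4.

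The ER stress element was present in 7 of 11 promoters of ER folding members (63.6%), namely Hspa5, Hsp90b1, Pdia6, Calr, Canx, Dnajc3 and Creld2, against 0.119% of all 32851 promoters in the table. The other 25 members with a promoter did not have it. Manf, Hspa9, Hspa8, Hsp90aa1, Cct4 and Hsp90ab1 were not searched. These examples are shown because they carry the same short element at different distances from the start site, and 1 carries it more than once. They are read 5' to 3' along the gene, with the element in capitals, and in Creld2 and the second match of Hsp90b1 it lies on the opposite strand. The positions are chr2:34772005-34772063 (plus strand) for Hspa5, chr12:17266471-17266529 (plus) for Pdia6, chr15:88819500-88819558 (plus) for Creld2 and chr10:86705513-86705676 (minus) for Hsp90b1.
Hspa5: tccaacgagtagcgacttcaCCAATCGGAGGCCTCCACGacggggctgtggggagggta
Pdia6: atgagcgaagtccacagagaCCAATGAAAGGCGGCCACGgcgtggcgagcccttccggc
Creld2: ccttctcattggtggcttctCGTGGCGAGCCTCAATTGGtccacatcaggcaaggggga
Hsp90b1: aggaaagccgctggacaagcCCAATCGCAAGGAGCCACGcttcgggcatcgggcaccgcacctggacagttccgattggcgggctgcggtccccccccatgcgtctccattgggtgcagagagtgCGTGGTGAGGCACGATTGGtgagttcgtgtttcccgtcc

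The heat shock element was present in the promoters of Hspd1, Hspe1 and Hsph1, against 0.603% of all promoters. Hspd1 and Hspe1 lie head to head on chromosome 1, and from 1 of the 2 listed Hspd1 start sites, 216 bases from that of Hspe1, the element lies between them and is the same one. The other Hspd1 start site lies 95 bases downstream of the Hspe1 start site, and its promoter held no match. The element begins 89 bases before the start site of Hspe1 and holds 2 overlapping matches. In Hsph1 the element lies 15 to 27 bases after 1 of the start sites. The positions are chr1:55088039-55088096 (plus strand) for Hspe1 and chr5:149636281-149636307 (minus) for Hsph1, and the matches are in capitals.
Hspe1: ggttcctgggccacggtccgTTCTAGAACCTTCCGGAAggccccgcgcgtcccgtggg
Hsph1: ctgcagaTTCTGGAAAGTTCtcctcag

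The amino acid response element was in none of the promoters of the 32 members searched and in 0.192% of all. The promoters of Hspa1a and Hspa1b, neighbouring copies of the inducible Hsp70 gene, were identical at 296 of 300 positions and held none of the 3 motifs as written. A match describes letters only, and where no match was found these letters are not in this window.

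**Figure D1:**
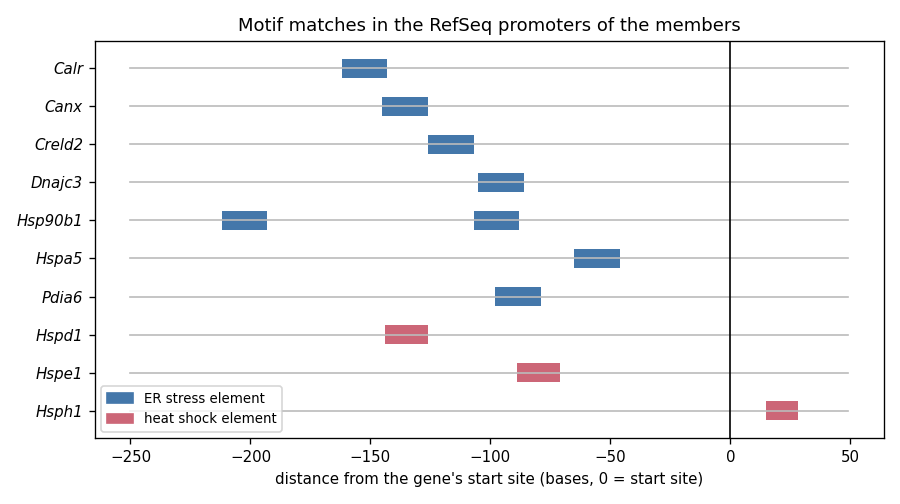
Positions of motif matches in the promoters of the 10 members that had one, as distance in bases from the start site (0); grey lines span each searched window. Blue bars are ER stress elements and red bars heat shock elements, and for Hsph1 and Hspd1 1 of 2 listed start sites is drawn. The ER stress elements lie upstream of the start site, and the heat shock element of Hsph1 lies downstream.

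Between the genotypes the chaperone genes differed little in size but mostly in the same direction. Differences are given as CTLA-4 KO minus wild type of log2(intensity + 16), with adjusted p from limma over all probe sets. Of the 36 tested members 30 had a positive difference (83.3%), as had 50.3% of all tested genes, though Hspa5 and Calr turned below 0 after quantile normalization (−0.012 and −0.020). The median difference was 0.19 over the members and 0.0018 over all genes. Every CTLA-4 KO array lay above every wild type array for 16 of the 36 (44.4%, against 12.2% of all genes), and the opposite held for 0 members (10.6% of all genes). Only Hspd1 passed an adjusted p of 0.05, which is 1 of 36 higher (1.19% of all genes) and 0 lower (0.5%). At an unadjusted p under 0.05 there were 13 of 36, against 16.5% of all genes.

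A second fit compared arrays of the same replicate number, which deviated together in these data (replicate block, called the paired fit below). It called 7 of 36 members higher, namely Hspd1, Hspa9, Hsph1, Manf, Creld2, Xbp1 and Trib3 (19.4%, against 5.48% of all genes), and 0 lower (3.44%). The paired fit left 2 degrees of freedom for estimating spread, and fewer with a pair left out. Its calls therefore lean on limma's variance moderation over all probe sets. With both arrays of replicate 1, 2 or 3 left out, this fit called 6, 5 and 4 members, all higher. Over all 27022 probe sets it then called 1029, 823 and 806 higher and 1200, 839 and 878 lower. Hspd1 was among the members called in each of the 3 cases, Trib3, Manf, Creld2 and Hsph1 in 2 and Xbp1 in 1. Hspa9 was called in none, with an adjusted p between 0.0622 and 0.128. Members not called with all pairs joined as well, namely Pdia3 without replicate 1, and Cct5 and Tcp1 without replicate 2. In bulk RNA, fewer cells of a kind and less RNA per cell cannot be told apart.

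**Figure D2:**
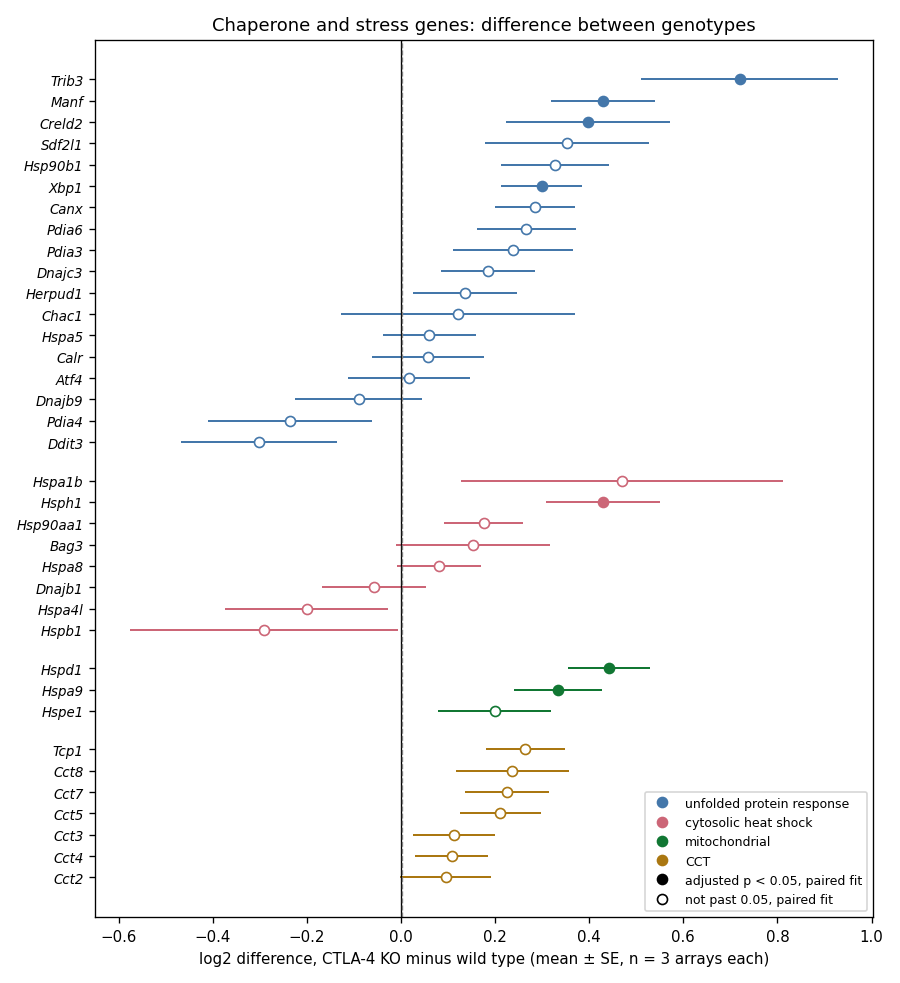
Log2 difference, CTLA-4 KO minus wild type, for the 36 tested members by class, with bars for the SE of the fit without pairing (n = 3 arrays per genotype). Filled points passed an adjusted p of 0.05 in the paired fit, and the dashed line is the median of all tested genes, 0.0018. The filled points are 7, all to the right of 0, and the points of the mitochondrial and CCT classes all lie to the right of 0, though Cct3 and Cct4 do not with the mean of all probe sets.

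The mitochondrial chaperones had the largest class median, 0.33, and all 3 differences were positive. Hspd1 encodes HSP60, the chaperonin of the mitochondrial matrix. Its intensity was 3570, 3675 and 3605 in the wild type arrays against 4774, 4894 and 5101 in those of CTLA-4 KO. The arrays within each genotype lay close together, and the genotypes did not overlap. Hspd1 rose 1.36 times, a log2 difference of 0.44 ± 0.09 (adjusted p = 0.0402, and 0.00765 in the paired fit). It had the smallest spread within genotypes of all members, an SD of 0.037 on the log2 scale, where the median was 0.14 over the members and 0.19 over all genes. The unpaired call was lost whichever single array was left out (adjusted p between 0.0784 and 0.183), while the difference stayed between 0.42 and 0.46.

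Hspa9 encodes mortalin, the Hsp70 that pulls proteins into the mitochondrion. It had 3889, 3939 and 3546 in the wild type arrays against 4645, 5060 and 4640 in those of CTLA-4 KO, without overlap. The difference was 0.33 ± 0.09 (adjusted p = 0.118), and it passed in the paired fit (0.0297). A further probe set of Hspa9 read 2185 ± 130 and 2976 ± 342 (SD, n = 3 arrays), a difference of 0.44 (adjusted p = 0.0939, and 0.0104 in the paired fit).

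Hspe1, which encodes the HSP10 cap of HSP60, shares the promoter stretch printed above with Hspd1. It had 2274, 2979 and 2895 in the wild type arrays against 2951, 3099 and 3253 in those of CTLA-4 KO. The lowest CTLA-4 KO array lay below the highest wild type array, and wild type replicate 1 stood lowest of all. Its difference was 0.20 ± 0.12 (adjusted p = 0.47, and 0.221 in the paired fit). Hspd1 and Hspe1 thus differed in whether they passed the test, and the difference between them was not tested. Both lie on chromosome 1, as does Ctla4 itself, and no other member does. The part of this location in their values was not tested.

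Among 10 other genes of mitochondrial folding and proteolysis, 9 had positive differences, with a median of 0.15, and 0 passed. At an unadjusted p under 0.05 there was 1 of 10, against 16.5% of all genes. The smallest p belonged to Clpx, which encodes the unfoldase of the ClpXP protease. It read 708, 613 and 594 in the wild type arrays against 858, 798 and 872 in those of CTLA-4 KO, without overlap (0.40 ± 0.13, adjusted p = 0.169, and 0.0465 in the paired fit). Next was Dnaja3, a co-chaperone of mortalin, with 1225 ± 188 and 1501 ± 260 (adjusted p = 0.43).

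**Figure D3:**
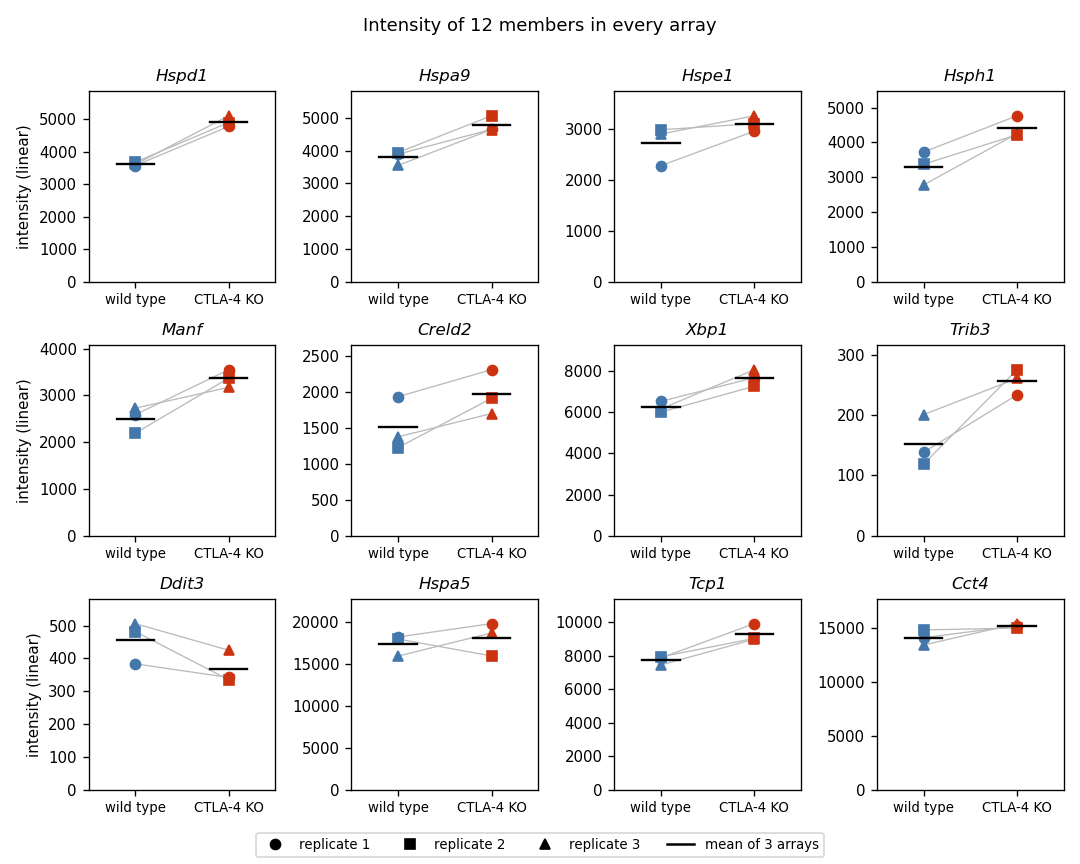
Linear intensity of 12 members in every array, wild type in blue and CTLA-4 KO in red, with a marker shape per replicate number, grey lines joining arrays of the same number and black bars for the mean of 3 arrays. Hspd1 runs from about the same value in the 3 wild type arrays to 4774 or more in CTLA-4 KO, whereas the arrays of Hspa5 and Ddit3 overlap between genotypes.

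The unfolded protein response holds 18 members, all tested. Of these 15 had positive differences, with a median of 0.21, and 0 passed without pairing (limma). At an unadjusted p under 0.05 there were 7 of 18, against 16.5% of all genes. In the paired fit Manf, Creld2, Xbp1 and Trib3 were higher (4 of 18, against 5.48% of all genes) and 0 were lower (3.44%). In replicate pairs 1, 2 and 3 the class median was 0.16, 0.19 and 0.27. Split by role, the 12 ER folding proteins had a median of 0.25 and the 6 stress regulators one of 0.13.

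Of the ER folding proteins, Manf encodes a small secreted protein that binds BiP and is induced by ER stress. It read 2587, 2191 and 2726 in the wild type arrays against 3549, 3368 and 3172 in those of CTLA-4 KO. All CTLA-4 KO arrays lay above all wild type arrays. The difference was 0.43 ± 0.11 (adjusted p = 0.0972, and 0.018 in the paired fit, or 0.0816 there without replicate 2).

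Creld2, another ER stress gene with disulfide isomerase activity, read 1939, 1228 and 1379 in the wild type arrays against 2315, 1916 and 1703 in those of CTLA-4 KO. The genotypes overlapped, since replicate 1 was the highest array of each, but each CTLA-4 KO array was above the wild type array of its number. Its difference was 0.40 ± 0.17 (adjusted p = 0.307, and 0.0319 in the paired fit, or 0.172 there without replicate 2).

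BiP itself, encoded by Hspa5 and the most used readout of ER stress, did not pass the test. It had 18219, 17976 and 15942 in the wild type arrays against 19817, 15958 and 18698 in those of CTLA-4 KO, and the genotypes overlapped. The difference was 0.06 ± 0.10 (adjusted p = 0.816). Its 2 other probe sets had 0.13 and 0.22, and neither passed.

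The remaining ER folding proteins did not pass in either fit. Hsp90b1, the ER form of Hsp90 known as GRP94, had 5437 ± 741 in the wild type arrays against 6791 ± 509 in those of CTLA-4 KO (SD, n = 3 arrays each), without overlap (0.33 ± 0.11, adjusted p = 0.206, and 0.0564 paired, with a difference of 0.20 when the Actb ratio was a term). Canx, the lectin chaperone calnexin, had 10514 ± 214 and 12840 ± 993, without overlap (0.29 ± 0.09, adjusted p = 0.138, and 0.0626 paired). Calr, its soluble relative calreticulin, overlapped between genotypes, with a difference of 0.06 ± 0.12 (−0.11 in the paired fit without replicate 3). Dimmer probe sets of Calr had 0.22 and 0.18, each without overlap. Neither of them passed (adjusted p = 0.318 and 0.362, and 0.135 and 0.219 paired). The isomerase Pdia6 had 0.27 ± 0.10 and Pdia3 0.24 ± 0.13 (−0.017 with the mean of its probe sets), but Pdia4 was below 0 at −0.24 ± 0.17. The BiP cofactors Sdf2l1 and Dnajc3 had 0.35 and 0.19, each without overlap, while the ER co-chaperone Dnajb9 had −0.09.

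Among these, the 7 genes whose promoters held the ER stress element all had positive differences, from 0.06 to 0.40 with a median of 0.27. For 4 of the 7 every CTLA-4 KO array lay above every wild type array, as for 12.2% of all genes. The other 4 ER folding genes with a promoter had no exact match to the letters searched. Pdia3 and Sdf2l1 were above 0 and Pdia4 and Dnajb9 below it, with a median of 0.074. Of these 4, only Sdf2l1 did not overlap between genotypes. The signs of Calr, Hspa5 and Pdia3 among these changed under the alternatives named above. These are counts of few genes, and the difference between the 2 groups was not tested.

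The stress regulators divided by gene. Xbp1 encodes the transcription factor that IRE1 activates by splicing its mRNA. It read 6529, 6005 and 6162 in the wild type arrays against 7681, 7264 and 8069 in those of CTLA-4 KO. The genotypes did not overlap, and the difference was 0.30 ± 0.09 (adjusted p = 0.129, and 0.0465 in the paired fit). Leaving out replicate 1 or 3 ended the paired call (0.16 and 0.236). Of its 3 further probe sets, 2 had positive differences (0.32 and 0.24, the first with an adjusted p of 0.203, and 0.0366 in the paired fit), and the dimmest, with a wild type mean of 241, had −0.14. None of these values separates spliced from unspliced mRNA.

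Trib3, a pseudokinase induced by ATF4 and CHOP, had the largest difference of all 36 members. It read 139, 119 and 201 in the wild type arrays against 234, 276 and 261 in those of CTLA-4 KO. Every CTLA-4 KO array was above every wild type array, and the mean was 1.68 times as high. The difference was 0.72 ± 0.21 (adjusted p = 0.128, and 0.0328 in the paired fit, or 0.167 there without replicate 2). In the 3 pairs it was 0.69, 1.11 and 0.35, so the female pair had the widest gap. With the Actb ratio as a term the difference of Trib3 was 0.40 (adjusted p = 0.65).

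Known regulators of Trib3 did not pass the test. Atf4, which PERK and amino acid shortage induce mainly through translation, had 2122, 2394 and 2522 in the wild type arrays against 2005, 2433 and 2720 in those of CTLA-4 KO (0.02 ± 0.13, adjusted p = 0.965). Its other bright probe set had 0.29 (adjusted p = 0.292, and 0.0826 paired). Ddit3, which encodes CHOP, lay the other way. It had 384, 482 and 506 in the wild type arrays against 342, 335 and 425 in those of CTLA-4 KO, with overlap (−0.30 ± 0.17, adjusted p = 0.42). Its dimmer second probe set also had a negative difference, −0.49, there without overlap (adjusted p = 0.273, and 0.146 paired). Chac1, a glutathione-degrading target of ATF4, was dim at 59.2 ± 14.4 and 64.9 ± 6.35, and Herpud1, which serves ER-associated degradation, had 0.14 ± 0.11.

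From 30 further genes of this response and of ER quality control, 29 were tested, 18 had positive differences and the median was 0.085. Asns, the asparagine synthetase gene and a target of ATF4, was the 1 that passed. It read 217, 199 and 201 in the wild type arrays against 423, 388 and 526 in those of CTLA-4 KO, a difference of 1.05 ± 0.17 (adjusted p = 0.0173). No gene was called lower. The paired fit called 3 of the 29 higher (5.48% of all genes), namely Asns, Atf6 and Hyou1. It called 1 lower (3.44%), Ero1b. Atf6, Hyou1 and Ero1b are named here after their values were seen. Atf6, the ER stress sensor, read 294, 387 and 399 and then 497, 507 and 522 (0.49 ± 0.16, paired adjusted p = 0.04). Hyou1, an ER Hsp70 relative, read 2435, 3315 and 2765 and then 3401, 4098 and 5520 (0.59 ± 0.17, 0.00975). Ero1b, an oxidase that reloads disulfide isomerases, read 1324, 1293 and 1376 and then 891, 922 and 1029 (−0.49 ± 0.11, 0.0107). The arrays of Atf6, Hyou1 and Ero1b did not overlap between genotypes. Of the 29 genes, 3 were higher without overlap (12.2% of all genes) and 2 lower (10.6%).

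Plasma cells are rich in ER chaperones, so their markers were read beside this class. Without Ighm, the 4 measured markers Jchain, Sdc1, Mzb1 and Tnfrsf17 summed to 83.8 to 176 in the wild type arrays against 101 to 224 in those of CTLA-4 KO, and none of them exceeded 85.6 in any array. Ighm was bright in both genotypes, at 9607 ± 1371 and 10709 ± 218 (adjusted p = 0.493). Of 7 B cell markers 6 were measured, at summed intensities of 240 to 406 and 168 to 289. Markers of other cell types were dim as well. The 8 myeloid markers summed to 446 to 474 and 336 to 553, 5 dendritic cell markers to 208 to 297 and 158 to 205, and 3 NK cell markers to 45.6 to 126 and 81.1 to 87.6. The 2 erythroid markers measured summed to at most 13.5 and 31.1, and the 2 CD8 markers to 262 to 422 and 315 to 513.

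The cytosolic heat shock class had 9 measured members and 8 tested. Of the 8, 5 had positive differences, with a median of 0.12, and 0 passed without pairing (limma). At an unadjusted p under 0.05 there was 1 of 8, against 16.5% of all genes. The medians in pairs 1, 2 and 3 were −0.0079, −0.011 and 0.22, so the class as a whole was above 0 only in pair 3. Without that pair the class median was −0.021.

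Hsph1 was the 1 member of the 8 called in the paired fit, where 5.48% of all genes were called higher. It encodes the Hsp70 exchange factor Hsp105 and carries the heat shock element shown above. It read 3725, 3375 and 2779 in the wild type arrays against 4766, 4221 and 4254 in those of CTLA-4 KO, without overlap. The difference was 0.43 ± 0.12 (adjusted p = 0.119, and 0.0136 in the paired fit, or 0.0879 there without replicate 3). Its other probe set had 0.63 (adjusted p = 0.119, and 0.0136 in the paired fit).

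The inducible Hsp70 genes, the classical mark of heat shock, were dim. Hspa1a read 15.9, 3.36 and 17.3 in the wild type arrays against 36, 26.5 and 33.8 in CTLA-4 KO, with a mean below the filter floor of 35.4, and was not tested. Hspa1b had 86.8, 78.6 and 70.9 in the wild type arrays against 85.4, 75.4 and 226 in CTLA-4 KO. Only replicate 3 of CTLA-4 KO stood high, and the other 2 lay within the wild type range (0.47 ± 0.34, adjusted p = 0.556). Because the genes are near copies, a probe set of 1 of them may also read the other.

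The other cytosolic members did not pass in either fit. Hspa8, the constitutive Hsp70, was bright in both genotypes, at 22231 ± 1650 and 23531 ± 1821 (0.08 ± 0.09, adjusted p = 0.711). A second, dimmer probe set of Hspa8 had 7027 ± 205 and 9325 ± 1434 (0.40, adjusted p = 0.126, and 0.0243 in the paired fit), so its probe sets did not give the same size. Hsp90aa1, the inducible cytosolic Hsp90, had 12230 ± 555 and 13826 ± 917 without overlap (0.18 ± 0.08, adjusted p = 0.352). The Hsp70 partner Dnajb1 had −0.06, the co-chaperone Bag3 had 0.15, and the dim small heat shock protein gene Hspb1 had −0.29 ± 0.28. Hspa4l, an Hsp110 relative of Hsph1, had −0.20 ± 0.17, and all 5 of its probe sets had negative differences, the lowest being −0.63 (adjusted p = 0.119, and 0.0445 in the paired fit).

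Of 19 other genes of the heat shock system, 16 were tested, 11 had positive differences and 0 passed, with a median of 0.11. At an unadjusted p under 0.05 there were 2 of 16, against 16.5% of all genes. The smallest p belonged to a pair of Hsp90 co-chaperones. Fkbp4 had 543 ± 96.9 and 725 ± 38.9 (adjusted p = 0.225, and just past the threshold in the paired fit, at 0.04999), and Stip1 had 1026 ± 106 and 1262 ± 29.9 (adjusted p = 0.26), each without overlap. Of 10 immediate early genes, which also respond to cell handling, 8 were tested, with a median of 0.05. Fos rose from 630 ± 94.7 to 1117 ± 50.6 (adjusted p = 0.0215). Nr4a1 had a difference of 0.50 without overlap and passed in the paired fit (adjusted p = 0.131, and 0.0104 paired). The other 6, Junb, Ier2, Fosb, Egr1, Egr2 and Dusp1, lay between −0.23 and 0.27 and passed in neither fit. The part of handling in the heat shock values was not tested.

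All 7 measured subunits of CCT had positive differences in their brightest probe sets, between 0.095 and 0.26 with a median of 0.21, though the mean of all probe sets was below 0 for Cct3 and Cct4. None passed in either fit (limma). At an unadjusted p under 0.05 in the fit without pairing there were 3 of 7, against 16.5% of all genes. The class median was 0.15, 0.069 and 0.22 in pairs 1, 2 and 3. The subunits varied little within genotypes, with a median SD of 0.09 on the log2 scale.

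Tcp1, which encodes the first subunit described, had the smallest p of the 7. It read 7859, 7923 and 7437 in the wild type arrays against 9909, 9026 and 8981 in those of CTLA-4 KO, without overlap (0.26 ± 0.08, adjusted p = 0.164, and 0.0736 paired). Cct7 read 8387, 8723 and 7915 and then 10527, 9689 and 9082, also without overlap (0.23 ± 0.09, adjusted p = 0.257). Cct5 read 11007, 11357 and 9933 and then 13066, 11915 and 12379, without overlap (0.21 ± 0.09, adjusted p = 0.269). Cct8 read 5869, 4581 and 4428 and then 6257, 5739 and 5427, where wild type replicate 1 lay within the CTLA-4 KO range (0.24 ± 0.12, adjusted p = 0.379).

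Cct2, Cct3 and Cct4 had differences of 0.095, 0.11 and 0.11, and of these the arrays of Cct4 did not overlap. Further probe sets of Cct2 had larger differences, 0.21 and 0.27, and neither passed (adjusted p = 0.38 and 0.313, and 0.17 and 0.0683 paired). Of 5 other tested probe sets of Cct3, 4 had positive differences and 1 a negative one, and of 5 of Cct4, 2 were positive and 3 negative. The negative one of Cct3 was at −0.87 with a wild type mean of 116 (adjusted p = 0.107, and 0.044 paired). The subunit gene Cct6a, outside the member list, read 9238, 9179 and 8407 and then 10778, 10253 and 11042 (0.26 ± 0.08, adjusted p = 0.167). Together with prefoldin, which hands actin and tubulin to CCT, and with Pdcl, Pdcl3 and Txndc9, 11 genes were listed and 10 tested. All 10 differences were positive, with a median of 0.17, and 0 passed. At an unadjusted p under 0.05 there were 2 of 10, against 16.5% of all genes. Pfdn6, a prefoldin subunit, had 550, 968 and 799 in the wild type arrays against 930, 1412 and 1477 in those of CTLA-4 KO, with overlap but the same direction in each pair (0.72 ± 0.22, adjusted p = 0.151, and 0.0019 in the paired fit).

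Over all 84 tested probe sets of the members, the paired fit called 12 higher and 2 lower, in 11 genes, against 3.86% higher and 4.8% lower of all 27022 probe sets. The 2 lower ones belong to Cct3 and Hspa4l and are given above.

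Set side by side, the class medians were 0.33 for mitochondrial chaperones, 0.21 for the unfolded protein response, 0.21 for CCT and 0.12 for cytosolic heat shock. With the mean of probe sets they were 0.34, 0.15, 0.21 and 0.19 in the same order, so cytosolic heat shock was not the lowest there. The mitochondrial median was 0.37, 0.36 and 0.39 in the 3 pairs, and lay between 0.29 and 0.39 under the alternatives run. The mitochondrial median had the smallest spread between pairs, and that of cytosolic heat shock the widest. The mitochondrial median is the middle of only 3 genes, which varied more. In pairs 1, 2 and 3 Hspe1 had 0.37, 0.057 and 0.17, Hspa9 0.26, 0.36 and 0.39, and Hspd1 0.42, 0.41 and 0.50. No test of a difference between classes was made.

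**Figure D4:**
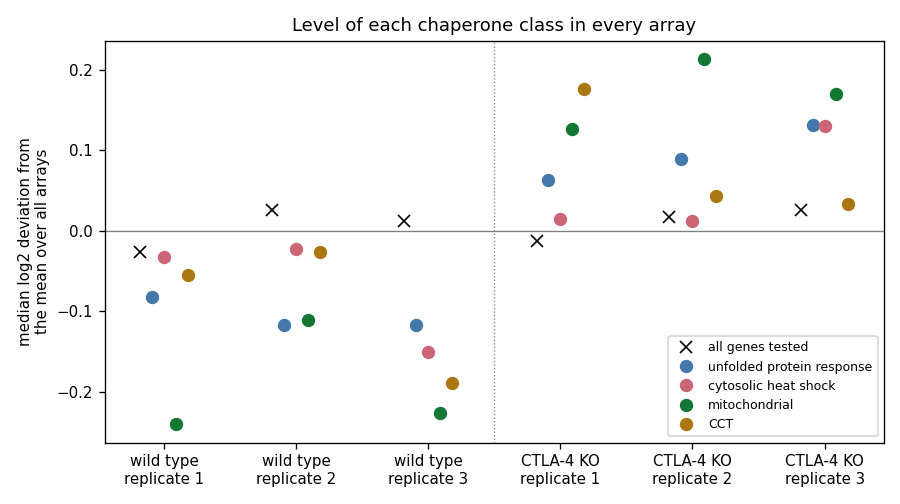
Level of each class in every array, as the median over its tested members of the log2 value minus its mean over all 6 arrays; crosses give the same over all 11990 tested genes. The mitochondrial class lies at −0.11 or lower in wild type and at 0.13 or higher in CTLA-4 KO, while the cytosolic heat shock class is near 0 in 4 of 6 arrays and the crosses stay within 0.026 of 0.

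Other measures differed between the genotypes as well. Of 20 mitosis genes 19 were tested, all 19 had positive differences with a median of 1.07, and 13 passed. Their median was 1.07, 1.39 and 0.81 in pairs 1, 2 and 3. The part of cell division in the chaperone values was not tested. With the Actb ratio as a term the class medians were 0.35 for mitochondrial, 0.27 for unfolded protein response, 0.27 for CCT and 0.17 for heat shock members, none smaller than without it. The lists of other genes moved both ways: with that term the medians were 0.046 for the unfolded protein response, 0.032 for heat shock, 0.10 for CCT with prefoldin and 0.22 for mitochondrial genes. Among the 36 members the difference became smaller by over 1.5 times in 5 (Trib3, Hsp90b1, Sdf2l1, Pdia4 and Hspa4l), larger by over 1.5 times in 13, and changed sign in Atf4. No member passed in that fit, in which 0.0834% of all genes did, so the count of 0 tells little about the members. The adjusted p of Hspd1 was 0.281 there at a difference of 0.46.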

How the data were processed

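The authors deposited a table of linear intensity values of 45101 probe sets on 6 arrays. Partek and MAS5 are named, without versions, in the submitters' processing notes, and the equal trimmed means show that the arrays had been scaled before deposit. Groups came from sample titles. The titles call the arrays biological replicates, but nothing states separate animals, so p-values cover only the variation among these arrays.

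Values were turned into log2(intensity + 16), 64 control probe sets were left out, and probe sets were kept where their average reached the 40th percentile (35.4 in intensity), which left 27022. This scale understates changes of dim genes. A limma model (version 3.58.1, R 4.3.3; lmFit, then eBayes with trend) was fitted to the whole table, with Benjamini-Hochberg adjustment over all kept probe sets, and was tested on simulated data. The number of arrays limits precision. Arrays that share a replicate number in the titles deviated together from their groups (r = 0.371, 0.24 and 0.254), each over 0.1, and the replicate block compares these pairs.

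Probe sets were named through the platform annotation, with 1 gene for 34958 probe sets, several for 932 and none listed for 9211, and were updated through RefSeq gene IDs of GRCm38.p6. Members, lists and tests were chosen with earlier results of these data known. Named with all arrays were members past 0.05 in either fit, otherwise the 4 per class with the smallest p. For the other lists, genes past 0.05 or the 2 with the smallest p were named. Hspa5, Atf4, Ddit3, Hspe1, Hspa1a and Hspa1b were added after their values were seen. Comparisons of protein sequences were not made.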

Additional observations from a re-analysis of the deposited data

How the results depend on the processing

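Alternatives changed the filter, pseudocount, scaling, variance moderation, weights, probe sets, arrays and added terms. Hspd1 kept its direction in all 23, with a difference of 0.41 to 0.50, and passed in 13. The count of 339 changed probe sets (212 higher) became 111 with no dimness filter, 20 without the intensity trend, 521 with array weights, 46 in male arrays, 21 with the Actb term, 92 to 217 when 1 wild type array was left out and 62 to 204 when 1 CTLA-4 KO array was. It became 2341 with the replicate block, and 2229, 1662 and 1684 there without replicate 1, 2 and 3, an alternative chosen after seeing the data. Median centring gave 460, of which 338 were higher. The count of 1 member became 7 with the block (6, 5 and 4 there without replicate 1, 2 and 3), 2 with the Gapdh term, where Hsph1 joined, and 0 with no dimness filter, without the trend, in male arrays, with the Actb term and without any single array. The unfolded protein response median was 0.27 under median centring, 0.15 with the mean of probe sets and 0.13 in the block without replicate 3. The mitochondrial median was 0.39 under median centring, 0.30 after quantile normalization, 0.35 with array weights or the Actb term, 0.29 to 0.36 when 1 wild type array was left out, 0.29 to 0.36 when 1 CTLA-4 KO array was, and 0.37 and 0.31 in the block without replicate 1 and 3. The CCT median was 0.13 after quantile normalization and 0.27 under median centring or with the Actb term. The heat shock median was 0.19 with the mean of probe sets, 0.18 under median centring and 0.066 after quantile normalization. It was 0.040 without replicate 3 of wild type or of CTLA-4 KO. It turned to −0.021 in the block without replicate 3. The difference of Pdia3 was −0.017, of Cct3 −0.070 and of Cct4 −0.16 with the mean of probe sets. In the block without replicate 3 it was −0.11 for Calr, −0.035 for Hspa1b and −0.0077 for Hspa8. Over 825 values of members, 25 in 11 members changed sign. Except where a value or the alternative's own construction (fewer arrays or more genes tested) shows it, the cause was not tested.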

Other observations

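Probe sets of 1 gene can be compared as repeated readings of its mRNA. Beside the representative probe sets, 48 others of 24 members passed the filter, and 40 of them had the same sign of difference. In 18 of the 24 genes every such probe set went the same way. A second probe set of Cct7 read 2844 ± 650 in the wild type arrays against 3622 ± 554 in CTLA-4 KO (SD, n = 3 arrays; 0.36, adjusted p = 0.347, and 0.0296 paired), where the representative one did not pass. Genes with further probe sets of another sign were Cct3, Cct4, Dnajb1, Dnajc3, Pdia3 and Xbp1.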
